A study of Mus musculus with 8 samples.

Results

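The CCAAT/enhancer-binding proteins (C/EBPs) were examined in 4T1 cells, a mouse mammary carcinoma line, through the 6 genes that carry the family name: Cebpa, Cebpb, Cebpd, Cebpe, Cebpg and Cebpz. They were taken by gene symbol from a table of 24787 rows, and each had 1 row. The family was picked with the difference between the groups already known, so the members' values in that comparison are a description and no test of a member is made. Their 95% intervals are those of the group difference in a fit to all tested genes, which also shape its variances. They reflect only variation between these libraries. RNA was sequenced in 8 libraries: 4 from cells with a control shRNA, whose genotype is labelled wild type, and 4 from cells with an shRNA against Etv5, labelled as a knockdown. All 8 came from the same line in culture, each group carries a single construct name, and the labels leave unsaid whether replicates were separate cultures or clones. The study concerns tumour-cell ETV5, an ETS-family transcription factor, and its bearing on myeloid suppressor cells, so the comparison asks which tumour-cell transcripts differ when Etv5 is targeted.

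C/EBP proteins carry a basic region that contacts DNA and a leucine zipper through which they pair with each other and with relatives such as ATF4 and CHOP. Interleukin-1, interleukin-6 family cytokines and lipopolysaccharide induce Cebpb and Cebpd through NF-kB and STAT3, and the 2 proteins then bind promoters of acute phase and inflammatory genes. C/EBPα is a factor of liver, fat and granulocyte differentiation, and C/EBPε of late granulocyte maturation. C/EBPγ lacks an activation domain of its own and pairs with ATF4 in amino acid stress. Cebpz shares the name but encodes no leucine zipper protein: its product is a nucleolar factor of large ribosomal subunit assembly. In the mammary gland, Cebpb is needed for alveolar development and Cebpd is induced at involution.

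Expression is given as coverage: the depth-scaled average number of reads over a base of the gene. Because they are per base, levels of different genes can be compared. The values summed to between 254792 and 390495 per library, with between 13920 and 15379 genes above 0. Etv5 itself had a coverage of 15.2, 15.1, 11.7 and 14.4 in the control libraries and 13.0, 11.2, 7.52 and 12.7 in the Etv5 shRNA libraries, and these ranges overlapped. Its log2 difference was -0.33 (adjusted p = 0.819, limma), so the target transcript did not separate the groups. The third Etv5 shRNA library stood apart: it had the highest sum and the fewest genes above 0, and it lay at 93.4 on a first principal component (81.9% of the variance) where the next library, the third control, lay at 12.8. Deviations were taken from each gene's median over the 8 libraries. In the third Etv5 shRNA library the 25% of tested genes with the shortest transcripts (up to 2051 bases) had a median log2 deviation of 0.33. The 25% with the longest (from 4680 bases) had one of -1.04. The third control deviated the same way, by 0.24 and -0.28. Results below are therefore given over all 8 libraries and over the 7 without the third Etv5 shRNA library.

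The label of an epithelial tumour line was checked with marker genes. All 9 epithelial markers were tested, with Epcam between 91.6 and 124 in the control group and between 91.8 and 106 in the Etv5 group. None was called over 8 libraries (limma; 1 higher at an unadjusted p under 0.05), and over 7 Cdh1, which encodes E-cadherin, was higher: 40.9, 37.1, 34.3 and 41.8 in controls and 65.5, 64.4, 31.0 and 60.1 with the Etv5 shRNA (adjusted p = 0.00455, limma). Of 18 leukocyte markers only Cd68 and Cd14 passed the filter on low values, 6 were at 0 in every library, and the summed level was 7.74 to 10.1 in the control group and 6.55 to 7.84 in the Etv5 group. The pan-leukocyte gene Ptprc did not exceed 0.0460. None of 10 granulocyte markers passed the filter (3 at 0 throughout, Csf3r among them), with summed levels of 0.522 to 0.891 and 0.0792 to 0.751, and none of 6 adipocyte or 7 endothelial markers passed. Of 9 fibroblast markers, Pdgfra and Postn passed, and the summed levels were 3.54 to 4.43 and 1.15 to 4.16. Over 7 libraries the 2 were called in opposite directions: Pdgfra was lower (2.54 to 3.54 in controls and 2.15, 1.92, 0.519 and 1.91 with the Etv5 shRNA; adjusted p = 0.0452, limma) and Postn higher (0.781 to 0.908, and 1.57, 1.86, 0.510 and 1.47; adjusted p = 0.0170). Neither was called over 8 libraries (adjusted p of 0.435 and 0.837, limma). How far other cells contributed to the differences described here was not tested.

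The family had the same order in each of the 8 libraries: Cebpb was highest, followed by Cebpz, Cebpg, Cebpd, Cebpa and Cebpe. Cebpb alone took 77.7% to 83.5% of the summed C/EBP coverage in controls. With the Etv5 shRNA it took 58.1% to 74.3% in replicates 1, 2 and 4 and 83.6% in the third library. Cebpb lay at the 97.8th to 98.3rd percentile of all tested genes in controls and at the 94.0th to 97.0th with the Etv5 shRNA, without overlap. Cebpz and Cebpg were neighbours in this order, and their ratio (Cebpg over Cebpz, 0.772 ± 0.0855 in controls and 0.742 ± 0.107 with the Etv5 shRNA; SD, n = 4) overlapped between groups. A gene was tested where its coverage was at least 0.5 in at least 4 libraries, which 11731 genes did. Of the 6 members, Cebpb, Cebpd, Cebpg and Cebpz passed; Cebpa and Cebpe did not.

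**Figure D1:**
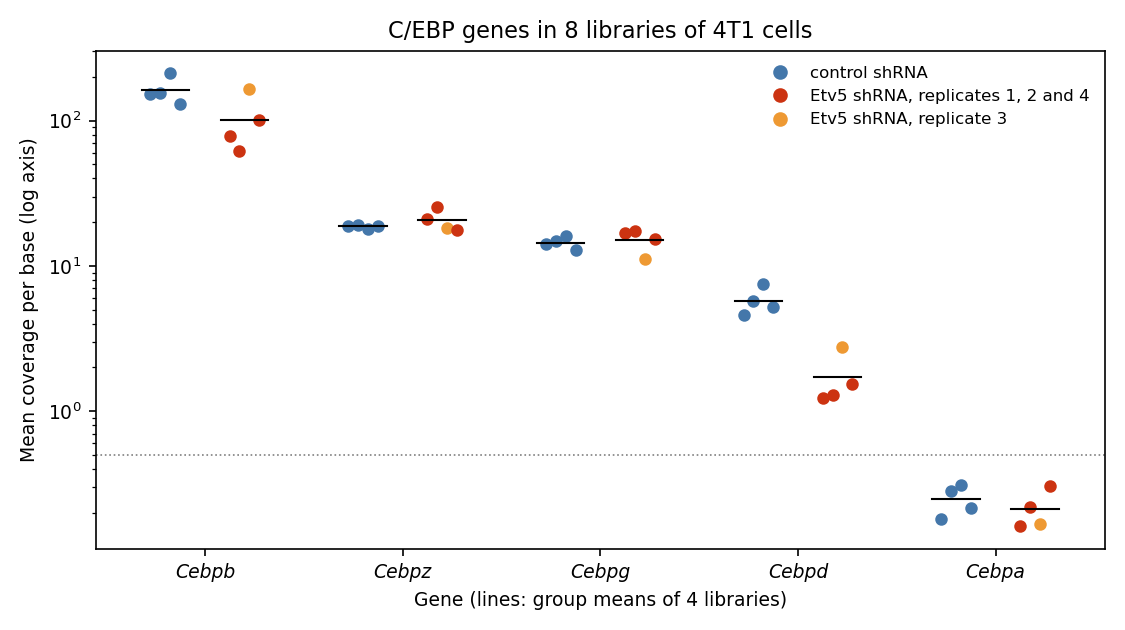
Coverage of 5 C/EBP genes in each library, as mean coverage per base on a log axis, with group means of 4 libraries as lines and the filter value of 0.5 as a dotted line; Cebpe, at or near 0, is not drawn. Cebpd is lower in every Etv5 shRNA library than in any control, Cebpb is lower in all but the third, and Cebpz and Cebpg overlap between groups.

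Cebpd, the member most closely tied to acute inflammation, had a coverage of 4.60, 5.70, 7.46 and 5.24 in the 4 control libraries and of 1.24, 1.30, 2.75 and 1.55 in the 4 Etv5 shRNA libraries. All 4 values with the Etv5 shRNA lay below the lowest control, with the third library the highest of its group and the third control the highest of all. In bulk RNA a lower level in each cell and fewer cells with the transcript cannot be told apart. The means were 5.75 ± 1.23 and 1.71 ± 0.705 (SD, n = 4), a 3.37-fold lower level with the Etv5 shRNA. Over 7 libraries the Etv5 shRNA mean was 1.36 ± 0.162 (SD, n = 3) and the fold 4.23. On the log2(coverage + 1) scale, which understates changes of low genes, the difference was -1.33 (95% interval -1.80 to -0.87), and -1.50 (-1.81 to -1.19) over 7 libraries.

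A gene is called here where its adjusted p over all tested genes is under 0.05. Of the 4 tested members, 1 (Cebpd) was past this threshold on the lower side over 8 libraries, 2 (Cebpd and Cebpb) over 7, and 0 on the higher side in either; under the other settings tried it was 0 to 2 lower. Among all tested genes, 0.486% were called lower and 0.00852% higher over 8 libraries, and 2.05% lower and 1.08% higher over 7. The members were chosen on this contrast, so their count is a description and nothing is read from it against that background. Groups that do not overlap were also common: 7.58% of genes were lower and 1.52% higher in this sense over 8 libraries, and 10.4% and 9.76% over 7. Under 19 other settings the difference of Cebpd ranged from -1.74 to -1.18.

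Cebpd lies on chromosome 16 of mm10, from 15887286 to 15891031 on the plus strand, and has a single exon. Its annotated length differs between sources: 3746 bases in GENCODE and 2260 in RefSeq. When each library's trend with transcript length was removed, the groups overlapped at the GENCODE length, with the third Etv5 shRNA library at 2.49 and the lowest control at 2.46 on the log2 scale. At the RefSeq length the mean difference was -1.27, and whether the groups overlapped at that length was not tested. The GENCODE model overlaps Spidr, a DNA repair gene on the opposite strand (from 15889224 to 16146851), and 13.9% of the 50-base windows of Cebpd also occur there. Spidr had a coverage of 7.78 to 8.32 in the control group and 3.38 to 8.25 in the Etv5 group, above that of Cebpd in every library. In Etv5 shRNA replicates 1, 2 and 4 it held 8.25, 8.22 and 8.09, beside 1.24, 1.30 and 1.55 for Cebpd. The TruSeq RNA kit named in the labels is not a strand-marking kit, and how strand was handled in averaging coverage is not given in the sources used here. Reads of the 2 genes over that stretch may therefore be mixed, and the part of Spidr in the values of Cebpd was not tested.

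Cebpb, which encodes the main C/EBP of this line by transcript level, had a coverage of 153, 156, 211 and 129 in controls and of 78.4, 61.3, 164 and 101 with the Etv5 shRNA. Replicates 1, 2 and 4 with the Etv5 shRNA lay below every control, and the third lay within the control range. The means were 162 ± 34.8 and 101 ± 45.0 (SD, n = 4), and 80.1 ± 19.6 (SD, n = 3) without the third library, folds of 1.61 and 2.03. The log2 difference was -0.75 (95% interval -1.43 to -0.08) over 8 libraries and -1.02 (-1.45 to -0.58) over 7. Under 18 other settings it ranged from -1.02 to -0.55.

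Where the third library falls for Cebpb depended on the scaling. With median-of-ratios scaling it held 240.9, the highest of all 8, and with all libraries scaled to equal sums it held 120, below the lowest control of 145. Cebpb is short (1504 bases, among the shortest 25%) and its transcript is 67.2% G and C. With the length trend removed the log2 levels were 7.31, 7.27, 7.48 and 7.11 in controls and 6.36, 6.06, 7.02 and 6.65 with the Etv5 shRNA, without overlap. With length and GC trends removed they were 7.10 to 7.48 against 6.28 to 6.93, also without overlap. The lowest value of Cebpb was in the second Etv5 shRNA library, the library whose deviations ran most against GC content (rank correlation -0.56 across 11561 genes, which are not independent); its part in that value was not tested beyond the trend removal.

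**Figure D2:**
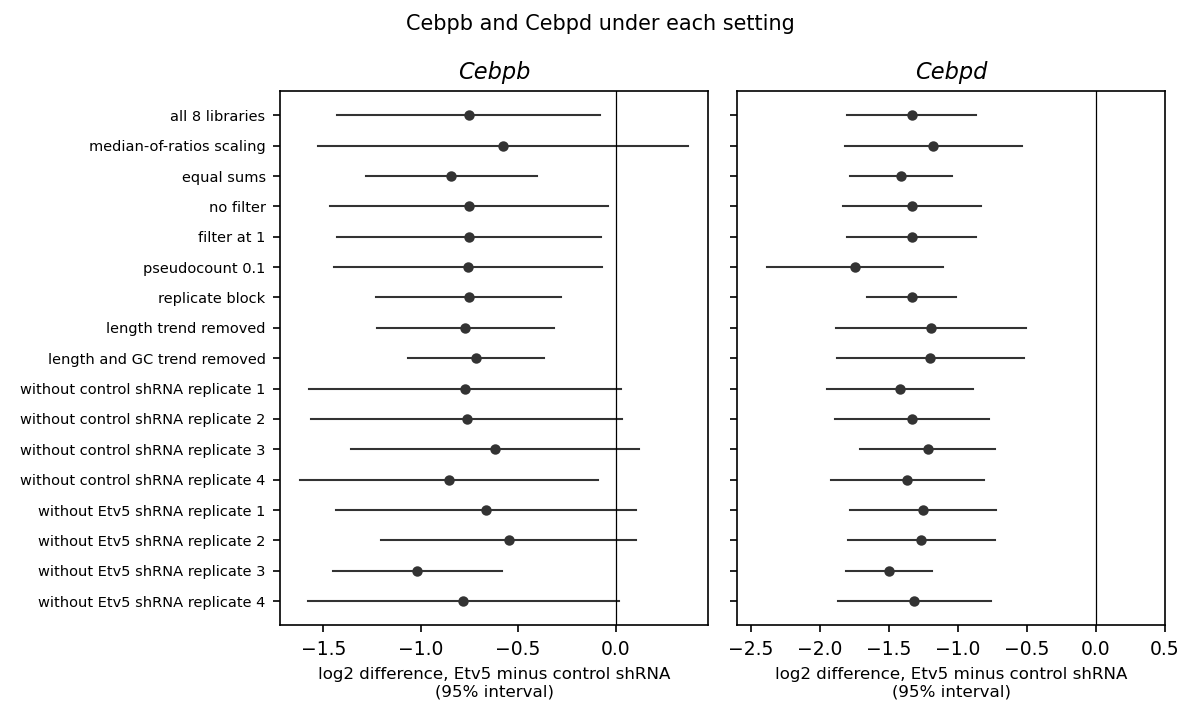
Log2 difference of Cebpb and Cebpd, Etv5 shRNA minus control shRNA, with its 95% interval under each setting. The x axes differ between panels. All 17 points of each gene lie below 0, between -1.02 and -0.55 for Cebpb and between -1.74 and -1.18 for Cebpd.

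Cebpb has a single exon on chromosome 2, from 167688915 to 167690418 on the plus strand. Its 1 messenger yields long activating and short inhibitory proteins from different start codons, which coverage of the gene cannot separate. Of its 50-base windows, 18.1% also occur in Tmem189 on the opposite strand, whose coverage was 12.1 to 15.3 in the control group and 7.16 to 17.7 in the Etv5 group, well under that of Cebpb. The 250 bases before the start of Cebpb (RefSeq, GRCm38.p6, chr2:167688665-167688914, plus strand) are shown because this is the promoter of the highest member. Capitals mark the letters of an NF-kB site (GGG, any 5 bases, CC) on either strand, in 3 matches of which 2 overlap. The window is 81.6% G and C, and 45.8% of 32851 promoter windows of this length hold those letters.
Cebpb: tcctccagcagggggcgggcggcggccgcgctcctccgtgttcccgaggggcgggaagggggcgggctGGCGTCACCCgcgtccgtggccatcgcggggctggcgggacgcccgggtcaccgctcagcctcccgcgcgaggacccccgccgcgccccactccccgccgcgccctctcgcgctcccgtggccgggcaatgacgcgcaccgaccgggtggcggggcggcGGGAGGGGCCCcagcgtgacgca

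None of the letters TTGCNNAA (C/EBP, in 9.56% of all such windows), TTCNNNGAA (STAT, 7.02%), TGACGTCA (CRE, 1.55%) or CCGGAAGT (ETS, 2.88%) occurred in this window on either strand, nor in those of Cebpa and Cebpg. These 3 members had a promoter in the RefSeq table. The windows of Cebpa and Cebpg also held the NF-kB letters, in 3 and 4 matches.

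Cebpd and Cebpb were compared within each library, where scaling cancels. A trend with transcript length does not cancel: Cebpd has 3746 bases in GENCODE, Cebpb 1504 and Cebpg 4709. Per 100 of Cebpb coverage, Cebpd took 3.00, 3.66, 3.53 and 4.06 in controls and 1.58, 2.11, 1.67 and 1.54 with the Etv5 shRNA. Here the third Etv5 shRNA library lay among its group, and all 4 were below every control. The means were 3.56 ± 0.436 and 1.73 ± 0.263 (SD, n = 4), so Cebpd was lower relative to Cebpb before any correction for length. With the length trend removed, the third Etv5 shRNA library held Cebpd at 2.49 and Cebpb at 7.02 on the log2 scale. The first control held 2.46 and 7.31. On those values, at the GENCODE length, Cebpd stood higher against Cebpb in that library than in the first control. With length corrected, the third Etv5 shRNA library thus did not lie below every control in this ratio. Cebpd relative to Cebpg, also uncorrected, was separate, at 0.324 to 0.467 in the control group and 0.0736 to 0.244 in the Etv5 group. Cebpb relative to Cebpg was 10.8, 10.6, 13.2 and 10.1 in controls and 4.65, 3.52, 14.6 and 6.61 with the Etv5 shRNA. Uncorrected for length, this ratio separated the groups only without the third library. With the length trend removed, Cebpb in the third Etv5 shRNA library lay below every control, and Cebpg there lay above every other library. On those values Cebpb stood lower against Cebpg in that library than in any control.

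**Figure D3:**
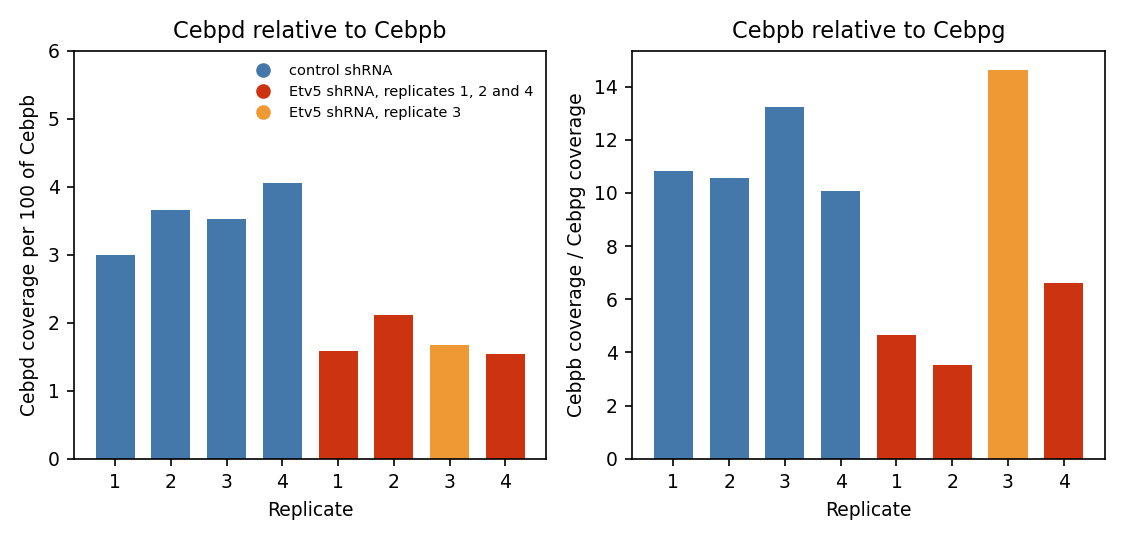
Ratios of C/EBP coverage within each library by replicate number, as Cebpd per 100 of Cebpb (left) and Cebpb over Cebpg (right); bars are single libraries, coloured by group. The left ratio is 3.00 to 4.06 in the control group and 1.54 to 2.11 in the Etv5 group, and the right ratio is highest in the third Etv5 shRNA library at 14.6. Neither ratio is corrected for the trend with transcript length.

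Cebpg, the short partner of ATF4, had a coverage of 14.2, 14.8, 16.0 and 12.8 in controls and of 16.9, 17.4, 11.2 and 15.2 with the Etv5 shRNA. The third Etv5 shRNA library was the lowest of all, and the ranges overlapped with or without it. The means were 14.4 ± 1.32 and 15.2 ± 2.80 (SD, n = 4). The log2 difference was 0.05 (95% interval -0.31 to 0.42), or 0.18 (-0.03 to 0.40) over 7 libraries, and its sign turned with equal sums (-0.025) and without the second Etv5 shRNA library (-0.014). Cebpg spans 35046422 to 35056573 on the minus strand of chromosome 7, in 2 exons, and at 4709 bases its transcript is among the longest 25%.

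Cebpz, the ribosome assembly factor, had a coverage of 18.9, 19.0, 18.1 and 18.8 in controls and of 21.0, 25.4, 18.1 and 17.8 with the Etv5 shRNA. The controls were close together and the Etv5 shRNA libraries spread around them, with the fourth below and the second well above. The means were 18.7 ± 0.450 and 20.6 ± 3.52 (SD, n = 4). The log2 difference was 0.12 (95% interval -0.20 to 0.44), or 0.17 (-0.08 to 0.42) over 7 libraries. Cebpz has 16 exons on the minus strand of chromosome 17, between 78919006 and 78937066. Its neighbour Cebpzos overlaps it on the opposite strand, and 2.88% of the 50-base windows of Cebpz occur in Cebpzos or a second overlapping model. Cebpzos held 8.29 to 12.3 in the control group and 8.97 to 11.2 in the Etv5 group, apart from 23.8 in the third library.

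Cebpa and Cebpe were at the floor of the table. Cebpa, the liver, fat and granulocyte member, had a coverage of 0.182, 0.281, 0.311 and 0.216 in controls and of 0.162, 0.219, 0.168 and 0.307 with the Etv5 shRNA, in overlapping ranges. Its locus on chromosome 7 (35119293 to 35121928, plus strand) is 62719 bases from Cebpg. Cebpe, a minus-strand gene of chromosome 14 (54710360 to 54712174), was listed at 0 in 7 libraries and at 0.00306 in the fourth control. Read depth is not known from these values, so no limit is put on what a 0 allows.

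The genes whose profiles were closest to each member were found by the mean absolute difference of log2(coverage + 1) centred on each gene. For Cebpd over 8 libraries these were Tmem176a (0.12), Tmem176b (0.13) and Mir7678 (0.20), against a range of 1.92 for Cebpd itself. Over 7 libraries they were Tmem176a (0.09), Gchfr (0.10) and Tmem176b (0.13). Tmem176a and Tmem176b overlap each other on opposite strands, and the row of Mir7678 lies within Slpi. Tmem176a held 49.5 to 59.9 in the control group and 18.4 to 25.2 in the Etv5 group, with the third library the highest of its group as for Cebpd. For Cebpb the closest were Upp1 (0.16), Cda (0.17) and H2-T23 (0.17) over 8 libraries and Ier5 (0.09), Smox (0.11) and Mgst1 (0.12) over 7, with no gene in common. For Cebpg they included Klhl12 and Hdac2 (0.04 each) over 8 libraries and were Alg5, Cntf and Slc40a1 (0.03 each) over 7. For Cebpz they were Zfp930 (0.05), Bnip2 (0.05) and Smim10l1 (0.06), then Bmi1, Gk and Crbn (0.03 each). The profiles share libraries and scaling.

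Genes that act upstream of Cebpb and Cebpd were taken from a list of 22 cytokines, receptors and factors, 17 of which were tested. The list, like the others below, was compiled with results of these data known. Over 8 libraries Il1a and Nfkbiz were called lower with limma and none higher, beside 0.486% of all tested genes called lower. At an unadjusted p under 0.05, 5 were lower and 0 higher. The median log2 difference was -0.41, beside -0.11 for all tested genes. Over 7 libraries Lif was also called lower (adjusted p = 0.00854, limma), beside 2.05% of all tested genes, and the median was -0.21 beside -0.00. Nfkbiz, an atypical IkB protein that acts with NF-kB on Lcn2, had a coverage of 20.3, 19.5, 17.4 and 21.0 in controls and of 5.21, 5.16, 1.74 and 4.71 with the Etv5 shRNA. All 4 were far below the controls, with the third library lowest. Its log2 difference was -2.05 ± 0.26 (SE; adjusted p = 0.0113, limma). The call was lost without any 1 control and with equal sums (adjusted p of 0.0544 to 0.0635, limma).

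Il1a, the cytokine interleukin-1 alpha, fell from 17.0 ± 1.15 to 2.85 ± 1.53 (SD, n = 4; log2 difference -2.34, adjusted p = 0.0169, limma), a call lost in 7 of 18 other settings (adjusted p of 0.0511 to 0.0901). Lif, an interleukin-6 family cytokine, held 12.9 to 16.5 in controls and 9.17, 8.58, 3.24 and 9.27 with the Etv5 shRNA, without overlap, and was called over 7 libraries only. Stat3, Il6st and Socs3 were not called over 8 or 7 libraries. Stat3 held 7.18 to 9.80 in the control group and 7.45 to 8.32 in the Etv5 group, apart from 2.91 in the third library (adjusted p = 0.876, limma). Il6st, the shared receptor chain, held 6.09 to 16.0 and 1.64 to 10.8 (adjusted p = 0.876, limma). Socs3, a feedback target of STAT3, held 7.78, 7.59, 6.57 and 7.13 in controls and 5.46, 4.89, 4.26 and 6.51 with the Etv5 shRNA: the ranges did not overlap, and the difference of -0.41 was not called (adjusted p = 0.555, limma).

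Dimer partners and relatives gave no call with limma over 8 libraries in 19 tested genes of 22 (median -0.12; at an unadjusted p under 0.05, 1 lower and 1 higher). Over 7 libraries Atf3, a stress-induced partner, was the only one called (higher; 4.33 ± 0.469 in controls, n = 4, and 6.82 ± 1.06 over the 4 Etv5 shRNA libraries; adjusted p = 0.00955 over 7, limma, and 0.340 over 8). Atf4 held 174 to 251 and 216 to 246. Ddit3, which encodes the inhibitory partner CHOP, held 27.3 to 45.7 in controls and 31.2, 28.6, 92.4 and 27.1 with the Etv5 shRNA, and the sign of its difference turned from 0.16 over 8 libraries to -0.25 over 7. Of 12 kinases that act on C/EBP proteins and of 11 coactivators and corepressors, none was called with limma over 8 or 7 libraries. At an unadjusted p under 0.05, 1 kinase was lower over 8, 1 was lower and 2 were higher over 7, and no coactivator or corepressor passed in either.

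The 12 genes of C/EBP degradation and translation control gave no call with limma over 8 libraries (2 lower and 2 higher at an unadjusted p under 0.05). Over 7, Trib2 was lower (adjusted p = 0.00702, limma), and Psme3 (adjusted p = 0.0185) and Siah2 (adjusted p = 0.0324) were higher. Trib2 and Trib1 are tribbles pseudokinases that hand C/EBPα to the ubiquitin ligase COP1. Trib2 held 8.55, 8.08, 7.80 and 7.75 in controls and 5.09, 4.08, 2.76 and 4.96 with the Etv5 shRNA, without overlap. Trib1 held 18.3 to 23.5 and 7.75 to 16.4, also without overlap and not called (adjusted p = 0.489 over 8 and 0.0671 over 7, limma). Trib3, an ATF4 target, held 46.1 to 64.1 and 60.9 to 76.4, in overlapping ranges.

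Acute phase and inflammatory targets of Cebpb and Cebpd made a list of 32 genes, compiled with results of these data known, of which 13 were tested. Of these, 8 fell and none rose: Lcn2, Cxcl5, Cxcl1, Csf3, C3, Ccl2, Nos2 and Steap4. The median log2 difference was -1.84 beside -0.11 for all tested genes. Over 7 libraries 11 were lower, with Slpi (adjusted p = 0.000185), Cp (0.00627) and Serpina3g (0.0149, all limma) added, and the median was -1.91. Nos2, Steap4 and Ccl2 passed the filter through the 4 control libraries (Ccl2 also reached 0.5 in 1 Etv5 shRNA library). Genes this low in the Etv5 group were tested only where the controls were higher. Because the list was compiled with results of these data known, the calls of all 13 are a description and no support. Of the other 10, 5 were called lower over 8 libraries and 8 over 7, with medians of -2.13 and -2.22. The calls of these 5 were kept in all 18 other settings.

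Lcn2 encodes lipocalin 2, an iron-siderophore binding protein of the acute phase. Its coverage was 76.8, 74.7, 86.6 and 62.2 in controls and 1.48, 0.755, 2.24 and 1.45 with the Etv5 shRNA (adjusted p = 1.4e-05, limma). Within each library Lcn2 stood at 11.6 to 16.7 times Cebpd in controls and at 0.583 to 1.19 times Cebpd with the Etv5 shRNA. By coverage, Lcn2 was thus lower by more than Cebpd, whose values may hold reads of Spidr. Whether Cebpd acts on Lcn2 in these cells was not tested. C3, the central complement component, held 31.3, 25.4, 17.6 and 27.0 in controls and 5.20, 3.64, 2.42 and 4.43 with the Etv5 shRNA. Its log2 difference was -2.42 ± 0.23 (SE; adjusted p = 0.00234, limma).

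Steap4, a metalloreductase, had a coverage of 1.27, 0.982, 0.892 and 0.822 in controls and was listed at 0 in 3 Etv5 shRNA libraries and at 0.0136 in the first. Nos2, the inducible nitric oxide synthase, held 1.19 to 1.82 in controls and at most 0.0398 with the Etv5 shRNA. Csf3, the gene of the neutrophil growth factor G-CSF, held 121 to 153 and 20.6 to 24.6 (adjusted p = 6.1e-05, limma). Slpi, a secreted antiprotease, held 42.2, 42.1, 57.3 and 39.5 in controls and 10.4, 6.75, 24.7 and 10.8 with the Etv5 shRNA. As for Cebpd and Cebpb, the third Etv5 shRNA library held the highest value of its group and the third control the highest of all.

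Not every target on the list was lower. Ptgs2, which encodes cyclooxygenase 2, held 29.4, 30.1, 27.5 and 34.4 in controls and 42.1, 47.2, 11.6 and 36.1 with the Etv5 shRNA. Replicates 1, 2 and 4 lay above every control and the third far below, and the difference of 0.01 was not called (adjusted p = 0.994 over 8 and 0.0720 over 7, limma). Sod2, the mitochondrial superoxide dismutase, held 10.1 to 12.6 and 12.0 to 15.4 and was not called. The 19 untested genes did not exceed 0.756. Saa3, an acute phase serum amyloid, held 0.0344 to 0.463 in controls and was listed at 0 in all 4 Etv5 shRNA libraries, and Hp, haptoglobin, did not exceed 0.107.

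**Figure D4:**
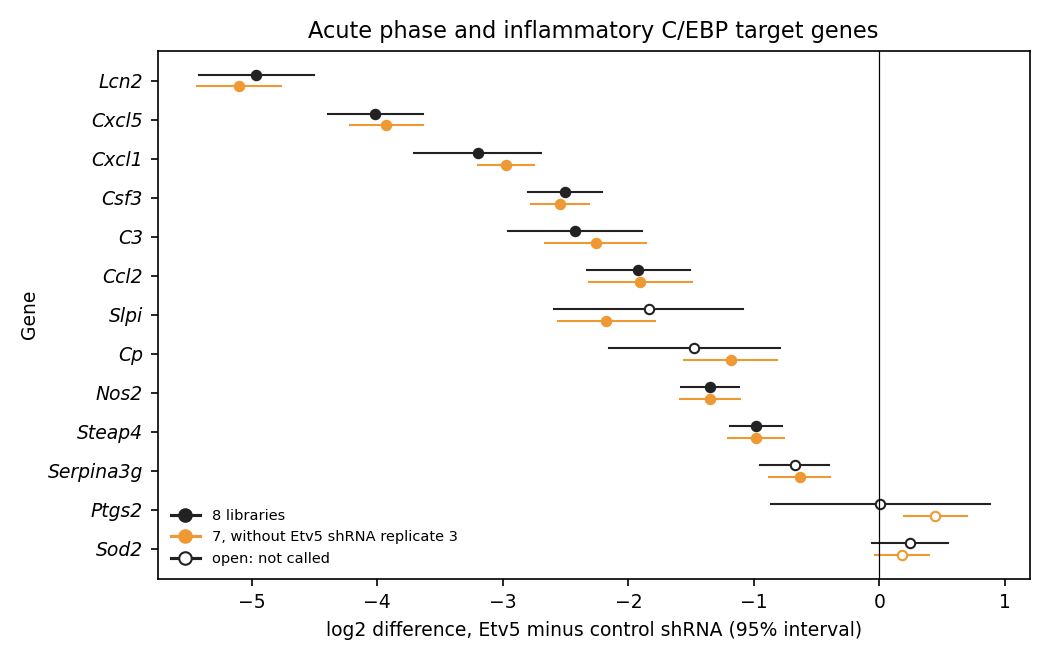
Log2 difference (Etv5 shRNA minus control shRNA, with 95% interval) of the 13 tested acute phase and inflammatory targets over 8 libraries (black) and over 7 without the third Etv5 shRNA library (orange); filled points are called over all genes, and Ccl2, Nos2 and Steap4 passed the filter through the controls. Lcn2 and Cxcl5 lie lowest, at -4.96 and -4.02 over 8 libraries, and Ptgs2 and Sod2 lie at or above 0 without a call.

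Promoter windows were in the RefSeq table for 9 of the 13 tested targets. The C/EBP letters TTGCNNAA, on either strand, occurred in those of Lcn2, C3, Cp, Ptgs2, Slpi and Steap4, and not in those of Cxcl1, Serpina3g and Sod2. Of 27025 genes in the table, 10.8% hold them in at least 1 window. The list was compiled as C/EBP targets, so nothing is read from its matches against that share. The 4 windows below are shown because they set genes that were lower in every Etv5 shRNA library beside Ptgs2, which holds the same kind of match and was not. Each covers the 250 bases before the start (GRCm38.p6), read on the strand of the gene, with the C/EBP letters in capitals: Lcn2 at chr2:32387740-32387989 on the minus strand, C3 at chr17:57228137-57228386 on the minus strand, Steap4 at chr5:7960222-7960471 on the plus strand and Ptgs2 at chr1:150099781-150100030 on the plus strand.
Lcn2: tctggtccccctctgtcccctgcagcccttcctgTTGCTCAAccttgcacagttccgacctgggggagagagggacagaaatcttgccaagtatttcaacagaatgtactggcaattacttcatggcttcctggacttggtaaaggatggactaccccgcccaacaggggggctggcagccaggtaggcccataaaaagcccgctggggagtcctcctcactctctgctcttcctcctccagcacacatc
C3: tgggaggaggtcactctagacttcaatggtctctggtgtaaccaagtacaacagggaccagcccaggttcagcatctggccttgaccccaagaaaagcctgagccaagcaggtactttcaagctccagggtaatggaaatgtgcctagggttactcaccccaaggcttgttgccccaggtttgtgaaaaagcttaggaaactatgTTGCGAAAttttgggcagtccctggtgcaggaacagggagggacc
Steap4: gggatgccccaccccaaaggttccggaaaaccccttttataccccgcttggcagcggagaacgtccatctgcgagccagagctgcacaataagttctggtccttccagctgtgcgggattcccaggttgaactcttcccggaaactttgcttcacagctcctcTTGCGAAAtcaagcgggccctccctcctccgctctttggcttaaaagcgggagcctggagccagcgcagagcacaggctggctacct
Ptgs2: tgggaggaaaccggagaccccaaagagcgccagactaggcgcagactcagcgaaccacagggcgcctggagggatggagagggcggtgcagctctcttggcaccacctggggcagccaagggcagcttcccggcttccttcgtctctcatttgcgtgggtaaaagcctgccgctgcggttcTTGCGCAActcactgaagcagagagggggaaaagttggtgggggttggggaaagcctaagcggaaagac

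The matches begin 216 bases before the start in Lcn2, 45 in C3, 87 in Steap4 and 69 in Ptgs2. Steap4 also held the STAT letters, 116 bases before its start, and each of the 4 windows held the NF-kB letters. A match of letters is a description of the window and not evidence of binding in these cells.

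Targets tied to the other members were read from separate lists. ATF4 and C/EBPγ targets (23 of 24 tested) gave no call with limma over 8 libraries (0 lower and 5 higher at an unadjusted p under 0.05), with a median of 0.20 beside -0.11 for all tested genes. Over 7 libraries 6 were higher and none lower, with a median of 0.29: Atf3, Slc7a5, Chac1, Cth, Mthfd2 and Aldh18a1 (adjusted p of 0.00955 to 0.0404, limma). Slc7a5, a large neutral amino acid transporter, held 91.9 to 110 in controls and 154, 156, 68.0 and 149 with the Etv5 shRNA. Mthfd2, a mitochondrial folate enzyme, held 72.3, 80.9, 91.3 and 76.5 in controls and 114, 120, 102 and 106 with the Etv5 shRNA. Asns, asparagine synthetase, held 113 to 141 and 143 to 170, without overlap and without a call (adjusted p = 0.494 over 8 and 0.117 over 7, limma).

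Large-subunit assembly factors that work with Cebpz (23 tested) gave no call with limma over 8 libraries (median 0.22; at an unadjusted p under 0.05, 0 lower and 3 higher). Over 7 libraries Wdr12 (adjusted p = 0.0311, limma) and Bop1 (adjusted p = 0.0370), partners in 1 nucleolar complex, were higher. Noc2l held 56.2 to 61.5 and 67.9 to 74.6, without overlap or call, and Noc3l held 7.02 to 9.98 in controls and 10.3, 10.1, 2.81 and 8.85 with the Etv5 shRNA.

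Differentiation targets were mostly below the filter. Only 3 of 18 adipocyte and liver targets and 6 of 14 mammary targets were tested, and none was called with limma over 8 or 7 libraries. At an unadjusted p under 0.05, 1 mammary target was higher in each, and 1 adipocyte and liver target was higher over 7 only. The milk genes Csn2 and Wap were listed at 0 in every library. Of 18 granulocyte targets 3 were tested and none was called with limma over 8 libraries (2 lower at an unadjusted p under 0.05). Over 7, Itgb2, the beta chain of leukocyte integrins, was lower (9.96, 10.1, 7.87 and 9.52 in controls and 4.85, 4.54, 1.50 and 3.58 with the Etv5 shRNA; adjusted p = 0.00312, limma). Mmp9, a gelatinase, was lower too (106 to 127 and 40.9 to 84.4; adjusted p = 0.0185, limma). The leukocyte markers Cd68 and Cd14 were not called, and whether other cells had a part in the levels of Itgb2 and Mmp9 was not tested.

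**Figure D5:**
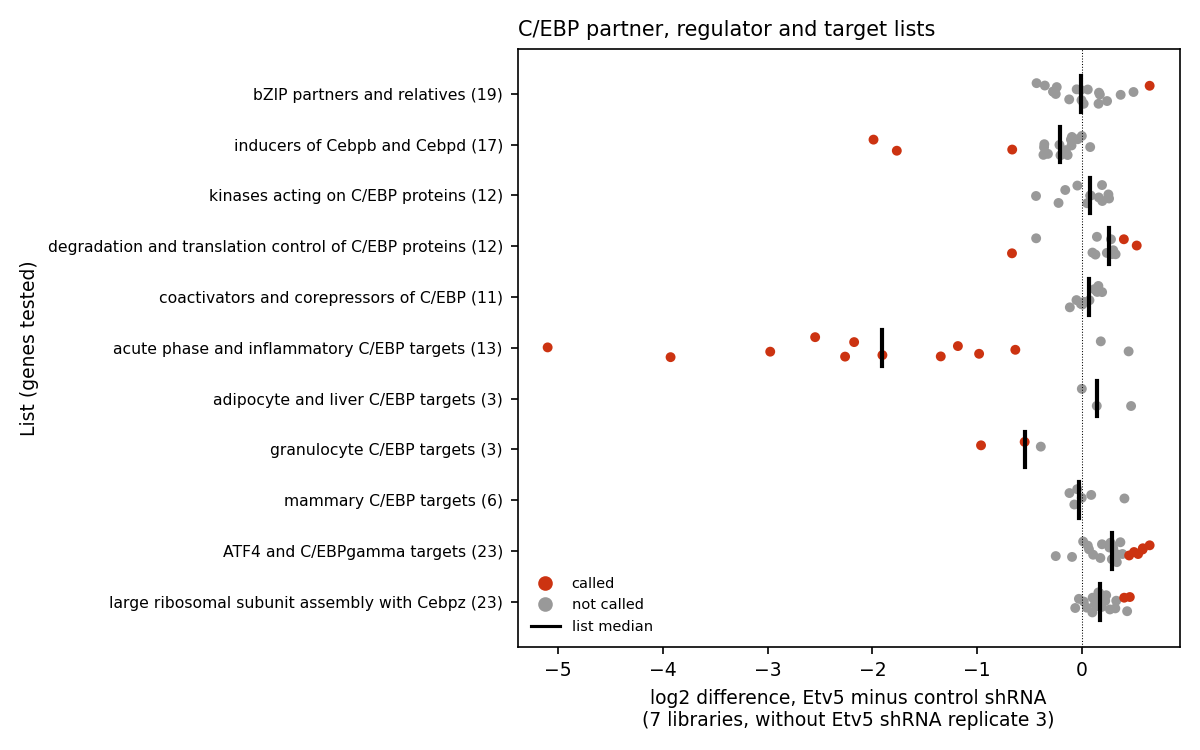
Log2 differences of the tested genes of each list over 7 libraries, without the third Etv5 shRNA library; points are genes, red where called, and black bars are list medians. The acute phase and inflammatory list has a median of -1.91 with 11 of 13 genes called lower (3 of them, Ccl2, Nos2 and Steap4, tested through the controls), and the ATF4 and C/EBPγ list a median of 0.29 with 6 of 23 called higher.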

How the data were processed

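RNA of 8 4T1 libraries was extracted with TRIzol or a purification kit, prepared with a TruSeq RNA kit and sequenced on a NovaSeq instrument, per the labels' protocols. Reads were aligned with STAR 2.7.10a and the mm10 build was used, per the submitters' processing notes. The authors deposited a coverage signal (the file headers name genome tracks), whose values behave as depth-scaled mean coverage per base. The program that averaged coverage per gene is not given in the sources used here, and read depth is unknown. Multiplied by transcript length, the values summed to between 739 and 769 megabases per library. Of 24787 rows, 7088 held only zeros, and 26 with date-like symbols are not named.

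Groups and replicate numbers came from sample titles. Since the labels do not say that replicates were separate cultures, p-values measure only the spread between these libraries, and that may be technical. Values were transformed as log2(coverage + 1), and genes at 0.5 or more in at least 4 of 8 libraries were tested with limma 3.58.1 in R 4.3.3 (intensity trend, no covariate, Benjamini-Hochberg adjustment over all tested genes). The tested set was kept when a library was left out. The procedure was tested on simulated data. Transcript lengths, GC content and coordinates came from GENCODE mouse release M21 (mm10, longest transcript). Promoters came from RefSeq (GRCm38.p6), with the bases after the start left out.

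The members and the gene lists were chosen with earlier results of these data known. Named genes were every member; up to 6 called genes of each list by adjusted p; a fixed set (Lcn2, C3, Saa3, Hp, Csf3, Ptgs2, Nfkbiz, Stat3, Socs3, Il6st, Ddit3, Atf4, Atf3, Trib1, Trib3, Asns, Noc2l and Noc3l); and the 3 tested genes closest to each tested member, of which 1 is not reported here. Cell type markers, genes overlapping a member, Sod2, Slpi, Nos2, Steap4, Cp, Serpina3g, Csn2 and Wap were named after their values were seen. Other settings were equal sums, median-of-ratios scaling, a filter at 1, no filter, a pseudocount of 0.1, a replicate block, each library left out, and removal of each library's length trend (lowess, span 0.3). Chosen after seeing the data were the length and GC trend together, that setting and median-of-ratios scaling each without the third Etv5 shRNA library, and Cebpd at its RefSeq length.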

Additional observations from a re-analysis of the deposited data

Results flagged for a closer look

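Of 67 groups of 4 libraries screened for a single value far from the other 3, 8 passed Dixon's 95% critical value for 4 samples. Chance would give 3.35 if the groups were normal and independent. They share libraries and some hold mostly zeros, so no excess is read from this. In 4 of the 8 the value was that of the third Etv5 shRNA library: it was the lowest of its group for Nfkbiz (1.74) and Stat3 (2.91) and the highest for Ddit3 (92.4) and Cebpzos (23.8). Cebpe was at 0.00306 in the fourth control library and listed at 0 in the other 3 controls. Nos2 (0.0398) and Steap4 (0.0136) each had their highest Etv5 shRNA value in the first library, with the other libraries of that group at or near 0. Ccl2, a monocyte chemokine, was highest of the controls in the third (4.82).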

How the results depend on the processing

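Over all tested genes, 57 were called lower and 1 higher, and these counts moved to 37 and 0 with a pseudocount of 0.1, 92 and 22 with the length trend removed, 122 and 41 with length and GC trends removed, and 690 and 645 with both trends removed and the third Etv5 shRNA library left out. Median-of-ratios scaling without that library gave 219 and 140. The count higher was 7 with median-of-ratios scaling, 0 with equal sums and 3 without a filter. Leaving out 1 library gave 28 to 241 lower and 0 to 127 higher, both highest without the third Etv5 shRNA library. Median-of-ratios scaling moved the median of all genes from -0.11 to 0.02, and equal sums to -0.18.

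For the C/EBP members, chosen on this contrast, the threshold is only descriptive. The count past it on the lower side (1) was 0 with median-of-ratios scaling, no filter, a pseudocount of 0.1 and either trend removal, 2 with both settings that combine a change with leaving out the third Etv5 shRNA library, and 0 to 2 when 1 library was left out. Cebpb, at -1.02 to -0.55 when 1 library was left out, was past it only in fits that lacked the third Etv5 shRNA library (-1.02), also with trends removed (-0.85) or median-of-ratios scaling (-0.997). Cebpd was not past it in 12 of 19 other settings. Among these were median-of-ratios scaling (-1.18), no filter (-1.33), a pseudocount of 0.1 (-1.74), and the length trend (-1.20) or length and GC trends removed (-1.20). The rest were the fits that lacked 1 control, whichever it was, or Etv5 shRNA replicate 1, 2 or 4. The difference of Cebpd ranged from -1.50 to -1.22 when 1 library was left out. The cause was not tested. Genes of the lists called lower (10, of which Ccl2, Nos2 and Steap4 were tested through the controls) and higher (0) became 16 and 1 with the length trend and 16 and 2 with length and GC trends removed, 23 and 28 with the latter and 17 and 10 with median-of-ratios scaling where the third Etv5 shRNA library was also left out, and 1 higher with median-of-ratios scaling alone. They ranged from 8 to 17 and 0 to 10 when 1 library was left out.

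Signs turned for uncalled genes: Cebpg with equal sums (-0.025) and without the second Etv5 shRNA library (-0.014, the lowest of a range that reached 0.18), Ddit3 without the third (-0.25, beside up to 0.33 without another library, and also -0.15 with trends removed and -0.23 with median-of-ratios scaling) and Noc3l likewise (0.18, 0.13 and 0.20, beside down to -0.34 without another library). Ptgs2 turned with equal sums (-0.072) and when any 1 of 5 libraries was left out (from -0.20, in a range that reached 0.45).

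Same-numbered libraries deviated together by correlations of 0.549, 0.0925, 0.794 and 0.510, not all over 0.1. Not every library correlated best with its own number, and only the third libraries were each other's best match. The numbers were therefore not taken as pairs, and whether same-numbered libraries shared a preparation was not tested. With the replicate block 50 genes were lower and 1 higher, and the differences were -1.33 for Cebpd and -0.75 for Cebpb. Read depth is unknown, so counting error could not be set beside low values such as those of Cebpa, Nos2 and Steap4.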
